A study of Homo sapiens with 40 samples.

Results

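Genes that estrogen receptor α is known to switch on in breast cancer cells were followed in single T47D cells: TFF1, TFF3, AREG, STC2, IGFBP5, CA12, PDZK1, GREB1, NRIP1 and MYB. They were chosen by name as such targets, and make up 10 of the 60279 genes listed in the count tables. T47D is an established human line of luminal breast cancer that carries the receptor. All cells came from 1 culture at passage 10, grown in RPMI-1640 with fetal bovine serum. No estrogen, antiestrogen or other hormone treatment is given, so every cell was in the same medium. Live cells that stained for EpCAM and CD49f (integrin α6) were sorted singly into plates. Of the cells sequenced, 40 are used here. They are 13 by G&T-seq (G&T), 13 by the SMART-seq HT kit (Takara) and 14 by the NEBNext Single Cell/Low Input kit (NEB). After removal of G&T wells C2 and F1, Takara wells C2 and F1 and NEB wells B2, F1 and F2, 11 cells per protocol, 33 in all, were kept.

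Since each protocol was run on a plate and a sequencing run of its own, an effect of the protocol and 1 of the run cannot be told apart. A protocol is therefore 1 sample, its cells are not replicates of it, and no test was made between protocols. Levels are CPM, the reads of a gene per 1000000 reads on genes. A pooled level sums the reads of the 11 kept cells and carries a 95% exact Poisson interval. A share of cells carries an exact binomial (Clopper-Pearson) interval. There are no molecular identifiers, and the Poisson interval covers the counting error of reads only. The binomial interval treats the 11 cells of a protocol as independent draws. Neither covers a difference between plates or runs. Kept cells had 658154 to 1166633 reads on genes in G&T, 818512 to 1287911 in Takara and 624772 to 963816 in NEB. The share of reads on ERCC spike-ins had medians of 1.80%, 0.977% and 11.9%, and the median number of detected genes was 11253, 10983 and 5161. All 9 luminal epithelial markers had reads in each protocol, with a summed pooled level of 9539 CPM in G&T, 17267 CPM in Takara and 3373 CPM in NEB. Over the fibroblast, immune, endothelial and basal lists that level was at most 31.0 CPM, with KRT5 and KRT14 at 0 in Takara and NEB and 1 and 2 reads in G&T. The highest was the basal list in Takara, where ACTA2 had 30.9 CPM with reads in all 11 cells, and COL1A1 of the fibroblast list had 10.8 to 12.6 CPM, with reads in 9 to 11 cells of each protocol.

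Estrogen receptor α is a nuclear receptor. With estrogen bound it settles on DNA at estrogen response elements, mostly in enhancers, together with pioneer factors such as FOXA1 and GATA3, and recruits coactivators. Its targets include secreted peptides, growth factor signals, enzymes and regulators that act back on the receptor. TFF1, known as pS2, and GREB1 are long used as readouts of receptor activity in luminal breast cancer.

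The response element is a palindrome of 5 letters, 3 spacer letters and the 5 letters in reverse complement, GGTCANNNTGACC. RefSeq promoter windows on GRCh38.p14, from 250 bases before to 50 after a gene's start, were searched on both strands. Of the 10 genes 7 had an entry, with 10 windows in all, and TFF1, TFF3 and GREB1 were not looked at. No window of these genes held the full palindrome, as against 0.0570% of all 35116 windows. A single arm, GGTCA on either strand, was in 37.4% of all windows and in 5 of the 10, where 2 overlapping PDZK1 windows hold the same stretch. By gene, 4 of the 7 had such an arm. The stretches around it are printed here because they are the only matches to an arm of the element in these windows, with the arm in capitals, 5′ to 3′ along each gene. The arm lay 196 bases before the start in CA12 (chr15:63382026-63382054, minus strand), 170 before 1 of the 3 starts listed for NRIP1 (chr21:15065154-15065182, minus strand) and 100 or 68 before the 2 starts of PDZK1 (chr1:145707452-145707480, minus strand). In STC2 it lay 23 bases after the start (chr5:173328375-173328403, minus strand). A match is a description of the letters, not a receptor site.
CA12: actgtgttcctgGGTCAgccctggcccag
NRIP1: gcggcttcctccTGACCgggtgacaatgg
PDZK1: aagcaggacagaGGTCActtgaattcaga
STC2: tgctaacggcctGGTCAcatgctctccgg

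The 10 genes differed widely in level and in how evenly cells held them. TFF3 was the most abundant per length of transcript in every protocol, and NRIP1 and GREB1 were among the 3 least. CA12 and STC2 were read in almost every cell, whereas AREG and TFF1 ranged from 0 to at least 249 CPM between cells of G&T and of Takara. In G&T and Takara 101 of 110 pairs of gene and cell had reads, and in NEB 72 did. Thinned to the shallowest kept cell, 624772 reads, 101, 101 and 71.9 pairs are expected. G&T had reads in every kept cell for 6 of the 10 genes, Takara for 5 and NEB for 2. A set of 9831 genes had a mean pooled level of at least 5 CPM over the protocols. It holds all 10, and its genes are called tested genes from here on. Of them 56.3%, 66.5% and 14% had reads in every kept cell, in the same order. Over all tested genes 88.9%, 91.6% and 48.1% of the pairs of gene and cell had reads, beside 91.8%, 91.8% and 65.5% for the 10 genes. The 10 genes took 0.631% of the G&T reads on genes, 0.383% of the Takara reads and 0.181% of the NEB reads, and TFF3 alone made up 69.7%, 42.4% and 12.2% of these.

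**Figure D1:**
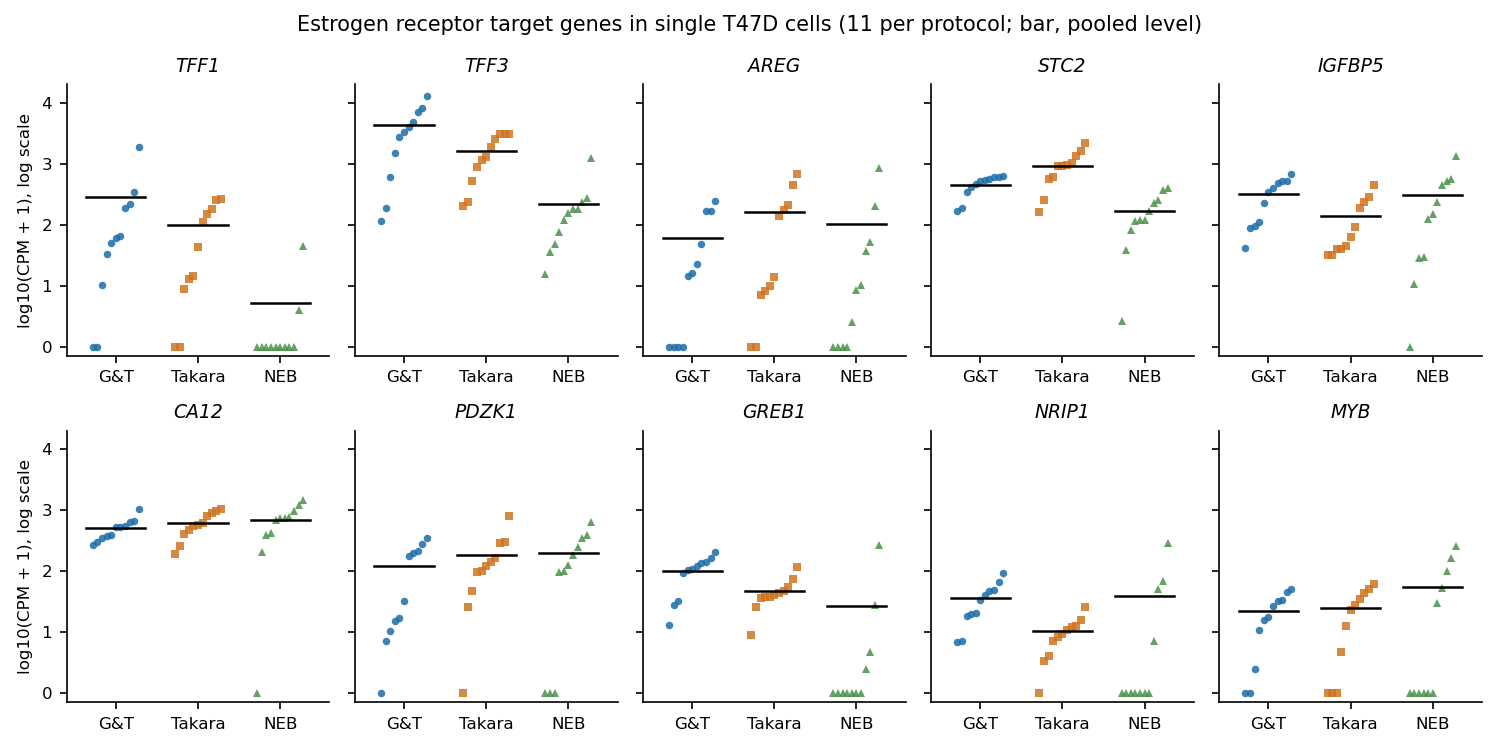
Level of each gene in each kept cell, as log10 of CPM plus 1 (log scale), for the 11 cells of G&T (circles), Takara (squares) and NEB (triangles), sorted within a protocol; black bars are pooled levels. CA12 points lie close together apart from 1 NEB cell at 0, while TFF1 and AREG spread from 0 to at least 249 CPM in G&T and Takara.

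The trefoil peptides TFF1 and TFF3 were the genes that differed most between NEB and the other protocols. Both encode small, disulfide-rich peptides secreted with mucus, and their genes lie 46.9 kb apart on chromosome 21. TFF1 (ENSG00000160182; chromosome 21, 42362282 to 42366535, minus strand, 3 exons) ranged from 0 to 1872 CPM over the G&T cells, with a median of 59.0 CPM. In Takara it ranged from 0 to 264 CPM with a median of 41.5 CPM, and in NEB 9 of the 11 cells had no read and the other two had 3.04 and 43.4 CPM. The G&T cell in well H1 held 67.3% of all TFF1 reads of that protocol. Pooled levels were 282 CPM (G&T, 95% interval 272 to 293), 96.8 CPM (Takara, 91.2 to 103) and 4.14 CPM (NEB, 2.85 to 5.81). Without H1 the G&T level was 103 CPM, the log2 ratio of G&T to Takara moved from 1.53 to 0.09 and that of G&T to NEB from 5.78 to 4.34. The NEB level rests on the cell in well E1, which held 93.9% of the 33 reads, and without it the ratios to NEB were 7.80 for G&T and 6.26 for Takara. A TFF1 read was found in 9 G&T cells and 9 Takara cells (81.8%, interval 48.2% to 97.7%) and in 2 NEB cells (18.2%, interval 2.28% to 51.8%).

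TFF3 (ENSG00000160180; chromosome 21, 42311667 to 42315409, minus strand, 3 exons) was read in all 33 cells. Its level ran from 115 to 12935 CPM in G&T with a median of 3259 CPM, from 204 to 3118 CPM in Takara with a median of 1284 CPM, and from 14.5 to 1242 CPM in NEB with a median of 152 CPM. In G&T 8 of the 11 cells lay above every NEB cell, and in Takara 6 did, so the protocols overlapped in their lower cells. Pooled levels were 4398 CPM (G&T, 4356 to 4441), 1624 CPM (Takara, 1601 to 1648) and 222 CPM (NEB, 211 to 232). Only 11 other tested genes were at or above TFF3 in G&T, and each varied less between cells than TFF3 did, whose coefficient of variation was 0.960. The NEB cell in well B1 held 47.7% of the NEB reads on TFF3, and without it the NEB level was 127 CPM and the log2 ratios to NEB were 5.11 for G&T and 3.67 for Takara.

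Transcript length is given beside this difference. The canonical transcripts of TFF1 and TFF3, 492 and 867 nt, were the shortest of the 10. For the 734 tested genes under 1000 nt the median log2 ratio of G&T to NEB was 0.93, against 0.47 over all tested genes, and 5% to 95% of them lay between -1.88 and 4.33. TFF1, at 5.78, was above 99.0% of the other 733 short genes and TFF3, at 4.3, above 95% of them. For Takara to NEB, TFF1 at 4.25 was above 95.9% and TFF3 at 2.87 above 86.6%.

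Among the other secreted products, STC2 was the steadiest and AREG the most uneven. STC2 encodes stanniocalcin 2, a secreted glycoprotein (ENSG00000113739; chromosome 5, 173314723 to 173328447, minus strand, 4 exons). It ranged from 165 to 630 CPM in G&T with a median of 514 CPM, from 162 to 2176 CPM in Takara with a median of 927 CPM, and from 1.60 to 397 CPM in NEB with a median of 120 CPM. Takara cells were high and NEB cells low: 9 Takara cells and 8 G&T cells stood above the highest NEB cell. Pooled levels were 449 CPM (G&T, 436 to 463), 932 CPM (Takara, 915 to 950) and 170 CPM (NEB, 161 to 180). STC2 exceeded its NEB level by 1.39 log2 units in G&T and 2.44 in Takara, and in both cases the gap of the means was larger than the larger SD between cells. Between G&T and Takara the ratio was -1.05, within that SD, and it lay between -0.99 and -0.87 without any 1 of G&T wells E2 and H1 and Takara wells A1, D1 and E2, and was -0.95 with reads outside the mitochondrial genome.

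AREG encodes amphiregulin, a ligand of the epidermal growth factor receptor (ENSG00000109321; chromosome 4, 74445136 to 74455005, plus strand, 6 exons). No read was found in 4 cells of G&T, 2 of Takara and 4 of NEB. The highest cells held 249 CPM (G&T well G1), 675 CPM (Takara well H1) and 855 CPM (NEB well E1), while the medians were 15.3, 13.1 and 7.50 CPM. The E1 cell held 75.2% of the NEB reads on AREG and the H1 cell 43.5% of the Takara reads. Its coefficient of variation was 1.43 over the G&T cells, 1.46 over the Takara cells and 2.42 over the NEB cells. Of the other tested genes at or above its pooled level, 7 of 2876 varied as much in G&T, 4 of 1247 in Takara and none of 1876 in NEB. Its pooled levels of 59.3 CPM (54.5 to 64.4), 164 CPM (157 to 171) and 102 CPM (95 to 109) thus rest on few cells. Without the E1 cell the NEB level was 27.7 CPM and the log2 ratio of G&T to NEB moved from -0.77 to 1.07 and that of Takara to NEB from 0.68 to 2.52. Without the H1 cell the ratio of G&T to Takara moved from -1.45 to -0.79 and that of Takara to NEB to 0.02. Without G&T well A2, E2 or G1 the ratio of G&T to NEB passed 2-fold, at -1.01, -1.08 or -1.25.

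IGFBP5 encodes a secreted binding protein of insulin-like growth factors (ENSG00000115461; chromosome 2, 216672105 to 216695549, minus strand, 4 exons). It was read in every cell except NEB C1, from 40.9 to 690 CPM (G&T, median 345 CPM), from 30.8 to 444 CPM (Takara, median 61.7 CPM) and from 0 to 1326 CPM (NEB, median 151 CPM). G&T and NEB had close pooled levels, 325 CPM (313 to 336) and 303 CPM (291 to 316), and Takara had 139 CPM (132 to 146). The NEB cell in well B1 held 37.2% of the NEB reads, and without it the log2 ratio of Takara to NEB moved from -1.12 to -0.58. Without the Takara cell in well C1 that ratio was -0.996. Of its exon bases 487 are shared with the antisense gene DIRC3-AS1, and the strand used in counting is not given in the sources used here.

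In pooled CPM, the surface enzyme CA12 and the scaffold PDZK1 showed the smallest differences between protocols. CA12 encodes carbonic anhydrase XII, which hydrates carbon dioxide at the cell surface (ENSG00000074410; chromosome 15, 63321378 to 63381846, minus strand, 11 exons). It ranged from 270 to 1047 CPM in G&T, from 189 to 1066 CPM in Takara and from 0 to 1464 CPM in NEB, with medians of 529, 577 and 738 CPM. The ranges covered each other, and only the NEB cell in well C1 had no CA12 read. Pooled levels were 514 CPM (499 to 528), 609 CPM (595 to 623) and 693 CPM (675 to 712). Each pairwise log2 ratio lay between -0.43 and -0.19, and leaving out any 1 cell kept all of them between -0.56 and -0.03.

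PDZK1 encodes a protein with PDZ domains that anchors membrane transporters (ENSG00000174827; chromosome 1, 145670852 to 145708148, minus strand, 9 exons). Its levels ran from 0 to 355 CPM in G&T, from 0 to 795 CPM in Takara and from 0 to 652 CPM in NEB, with medians of 31.6, 122 and 128 CPM. In G&T 5 cells held 177 to 355 CPM and the other 6 at most 31.6 CPM. Pooled levels of 123 CPM (116 to 131), 181 CPM (173 to 189) and 198 CPM (189 to 208) differed by under 2-fold in each pair. PDZK1 varied more than most genes at or above its level: 11 of 1337 other tested genes varied as much in G&T and 9 of 1114 in Takara. Its near-copy PDZK1P1 was listed at 0 in every cell, and the PDZK1 counts may lack reads that match both places.

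The nuclear regulators were low, and in NEB they were read in few cells. GREB1 encodes a cofactor of the receptor (ENSG00000196208; chromosome 2, 11482341 to 11642788, plus strand, 33 exons). It was read in all 11 G&T cells, from 12 to 203 CPM with a median of 106 CPM, and in all 11 Takara cells, from 7.92 to 117 CPM with a median of 40.3 CPM. In NEB 7 cells had none, and the cell in well D2, at 272 CPM, held 85.6% of the reads. Pooled levels were 99.0 CPM (92.8 to 106), 47 CPM (43.2 to 51.1) and 26.2 CPM (22.8 to 30.0). Without D2 the NEB level was 4.10 CPM, and the log2 ratio of G&T to NEB went from 1.88 to 4.29 and that of Takara to NEB from 0.82 to 3.24. The ratio of G&T to Takara, 1.06, was 0.87 without the G&T cell in well B1, and 0.97 to 0.99 without G&T well E1 or Takara well A1 or A2. It was 0.998 with TMM scaling and 0.952 with DESeq2 size factors, both under 2-fold.

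NRIP1 encodes RIP140, which binds the liganded receptor and restrains it (ENSG00000180530; chromosome 21, 14961235 to 15065936, minus strand, 4 exons). G&T cells held 6.0 to 93.5 CPM with a median of 33.4 CPM, and Takara cells 0 to 24.5 CPM with a median of 8.42 CPM. In G&T 6 cells stood above every Takara cell. In NEB 7 cells had no read and the cell in well E2 had 286 CPM, which was 71.4% of the NEB reads. Pooled levels were 35.2 CPM (31.5 to 39.1), 9.30 CPM (7.64 to 11.2) and 38.1 CPM (34.0 to 42.7), and without E2 the NEB level was 12.1 CPM. Leaving E2 out moved the log2 ratio of G&T to NEB from -0.11 to 1.47 and that of Takara to NEB from -1.93 to -0.34. The G&T level was 3.78-fold the Takara level (interval 3.04 to 4.74), a gap of means larger than the larger SD between cells. Of its exon bases 649 are shared with 2 other listed genes, 1 on each strand.

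MYB encodes a transcription factor known for its role in blood progenitors and also active in luminal breast cancer (ENSG00000118513; chromosome 6, 135181308 to 135219173, plus strand, 16 exons). It was read in 9 cells of G&T, 8 of Takara and 5 of NEB, with highest levels of 49.6, 60.9 and 257 CPM and medians of 17.1, 22.0 and 0 CPM. In NEB 6 cells had no read and 4 stood above every G&T cell. Pooled levels were 21.4 CPM (18.5 to 24.5), 24.2 CPM (21.4 to 27.1) and 55.2 CPM (50.1 to 60.6). The NEB cell in well E2, the cell that was also highest for NRIP1, held 44.3% of the NEB reads, and without it the log2 ratio of G&T to NEB went from -1.33 to -0.64 and that of Takara to NEB from -1.16 to -0.47. Without the NEB cell in well D2 the latter was -0.88. The antisense gene MYB-AS1 shares 103 exon bases with MYB, and reads of such a pair cannot be told apart where counting ignores strand.

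Per kilobase of canonical transcript, the order of pooled levels was the following. In G&T it ran TFF3 (5073 CPM per kb), TFF1 (574), STC2 (106), CA12 (84.3), PDZK1 (59.7), IGFBP5 (52.0), AREG (48.0), GREB1 (11.6), MYB (5.80) and NRIP1 (4.54). No neighbours in that order differed by more than the larger of their SDs between cells. In Takara it ran TFF3 (1874), STC2 (219), TFF1 (197), AREG (133), CA12 (99.9), PDZK1 (87.6), IGFBP5 (22.3), MYB (6.56), GREB1 (5.50) and NRIP1 (1.2). There TFF3 stood apart from STC2, and GREB1 from NRIP1, by more than that SD. In NEB it ran TFF3 (256), CA12 (114), PDZK1 (96.0), AREG (82.5), IGFBP5 (48.6), STC2 (40.1), MYB (15.0), TFF1 (8.41), NRIP1 (4.92) and GREB1 (3.06), again with no neighbours apart. TFF3 led in each protocol, and TFF1 dropped from the second place in G&T to the eighth in NEB.

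Between protocols, the 10 genes did not move as a block. The log2 ratio of pooled CPM, each with 1 CPM added, was past 2-fold upward in G&T over Takara for 5 genes (TFF1, TFF3, GREB1, NRIP1 and IGFBP5), where 18.2% of all tested genes were, and downward for 2 (STC2 and AREG), where 19.2% were. GREB1, NRIP1 and IGFBP5 have canonical transcripts of over 6000 nt, and of the 1819 tested genes of that length 41.2% were higher in G&T over Takara, with a median of 0.80. GREB1 was above 61.2% of the others of that length, IGFBP5 above 67.2% and NRIP1 above 85.9%. Of the tested genes of 1000 to 2000 nt 34.5% were lower in that pair, and AREG was above 16.5% of the others. Of those of 4000 to 6000 nt 9.73% were lower, and STC2 was above 8.79% of the others. In G&T over NEB 4 were higher (TFF1, TFF3, GREB1 and STC2) against 40.6% of all tested genes, and 1 was lower (MYB) against 21.1%. In Takara over NEB 3 were higher (TFF1, TFF3 and STC2) against 40.9%, and 3 were lower (MYB, NRIP1 and IGFBP5) against 23.5%. Of the tested genes of over 6000 nt 42.5% were lower in that pair, with a median of -0.67. NRIP1 was above 21.2% of the others of that length and IGFBP5 above 39.8%. MYB was above 15.5% of the other tested genes of 2000 to 4000 nt, of which 17.7% were lower. The median log2 ratio of the 10 genes was 0.44 in G&T over Takara, where that of all tested genes was -0.07. It was -0.01 against 0.47 in G&T over NEB, and 0.27 against 0.43 in Takara over NEB. These comparisons share their protocols with one another. For none of the 10 genes did the cells of any pair of protocols separate completely, which 2.86% of all tested genes did between G&T and Takara, 6.38% between G&T and NEB and 13.5% between Takara and NEB.

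**Figure D2:**
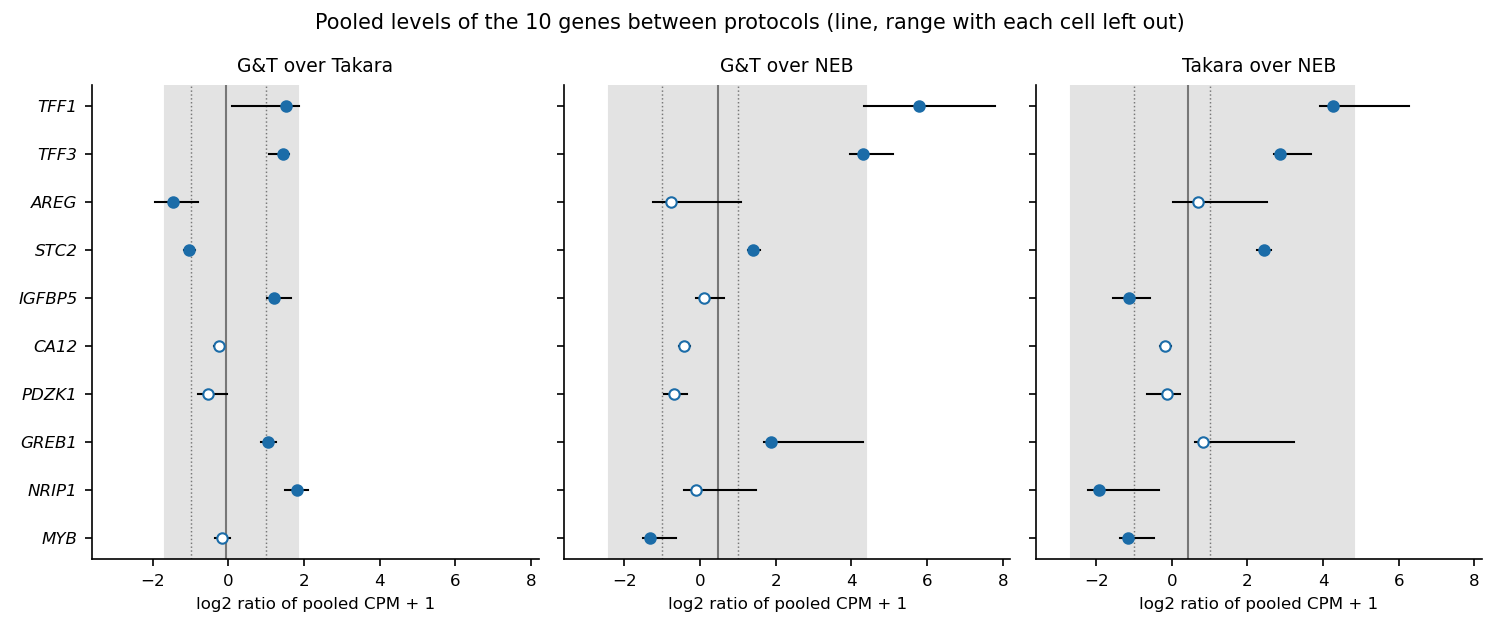
Log2 ratio of pooled CPM plus 1 for each gene in the 3 pairs of protocols (filled circles, past 2-fold; open circles, within it), with a line for the range when each kept cell is left out in turn; the grey band holds the central 90% of the 9831 tested genes, the grey line is their median and dotted lines mark 2-fold. TFF1 and TFF3 lie far to the right in both comparisons with NEB. The long lines of TFF1, AREG, GREB1 and NRIP1 show values that rest on 1 cell, and that of TFF1 reaches down to 0.09 in G&T over Takara.

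Scaling bears on these directions. With TMM scaling, DESeq2 size factors or reads outside the mitochondrial genome, the genes kept their direction in each pair, except IGFBP5 in G&T over NEB, which moved from 0.10 to -0.14 with DESeq2 size factors and to -0.0032 with TMM. Scaled to ERCC spike-ins, the median of all tested genes shifted by -0.98 in G&T over Takara, 2.56 in G&T over NEB and 3.54 in Takara over NEB, and all 10 genes were then past 2-fold higher in both comparisons with NEB. That turned MYB in G&T over NEB (1.35) and MYB, NRIP1 and IGFBP5 in Takara over NEB (2.5, 1.65 and 2.62), which were past 2-fold lower before. Relative to these shifts TFF1 and TFF3 remained above the median of all tested genes in every pair. Under ERCC scaling CA12 and PDZK1 no longer had the smallest differences. In Takara over NEB they were then at 3.56 and 3.6, above MYB, NRIP1 and IGFBP5.

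The receptor itself had another order than its peptide targets. ESR1, which encodes estrogen receptor α, was read in all 33 cells, from 49.2 to 692 CPM in G&T with a median of 178 CPM, from 15.5 to 151 CPM in Takara with a median of 47.4 CPM, and from 225 to 2086 CPM in NEB with a median of 830 CPM. Every NEB cell lay above every Takara cell. Pooled levels were 235 CPM (G&T, 225 to 245), 73.1 CPM (Takara, 68.3 to 78.2) and 877 CPM (NEB, 856 to 897). Thus ESR1 was lowest in Takara and highest in NEB, where TFF1 and TFF3 were lowest. Its log2 ratio of G&T to NEB was -1.90 and that of Takara to NEB -3.57, and leaving out any 1 cell kept them within -2.16 to -1.70 and -3.76 to -3.37. Scaled to ERCC spike-ins they were 0.86 and 0.17, so the direction depends on that choice. The canonical transcript of ESR1 has 6327 nt, while those of TFF1 and TFF3 were the shortest of the 10. In Takara over NEB the median was -0.67 for tested genes of over 6000 nt (5% to 95%, -3.33 to 3.49) and 0.59 for those under 1000 nt. In G&T over NEB these medians were 0.10 and 0.93. The part of length in the order of ESR1 was not tested.

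The other receptors of estrogen had few or no reads. ESR2, the gene of receptor β, had 3 reads in 1 G&T cell and none in Takara or NEB, where 3 reads would be 0.256 CPM and 0.376 CPM. GPER1, a membrane receptor, had 9 reads in G&T, 10 in Takara and none in NEB. The partner factors named here were read in at least 10 of the 11 cells of each protocol. Pooled levels of GATA3 were 865, 649 and 667 CPM and those of the pioneer factor FOXA1 47.7, 44.8 and 63.0 CPM in G&T, Takara and NEB, within 2-fold in each pair. TFAP2C (73.4, 66.8 and 325 CPM) and the coactivator NCOA3 (98.2, 40.1 and 152 CPM) were highest in NEB, an order that ERCC scaling turned for both.

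**Figure D3:**
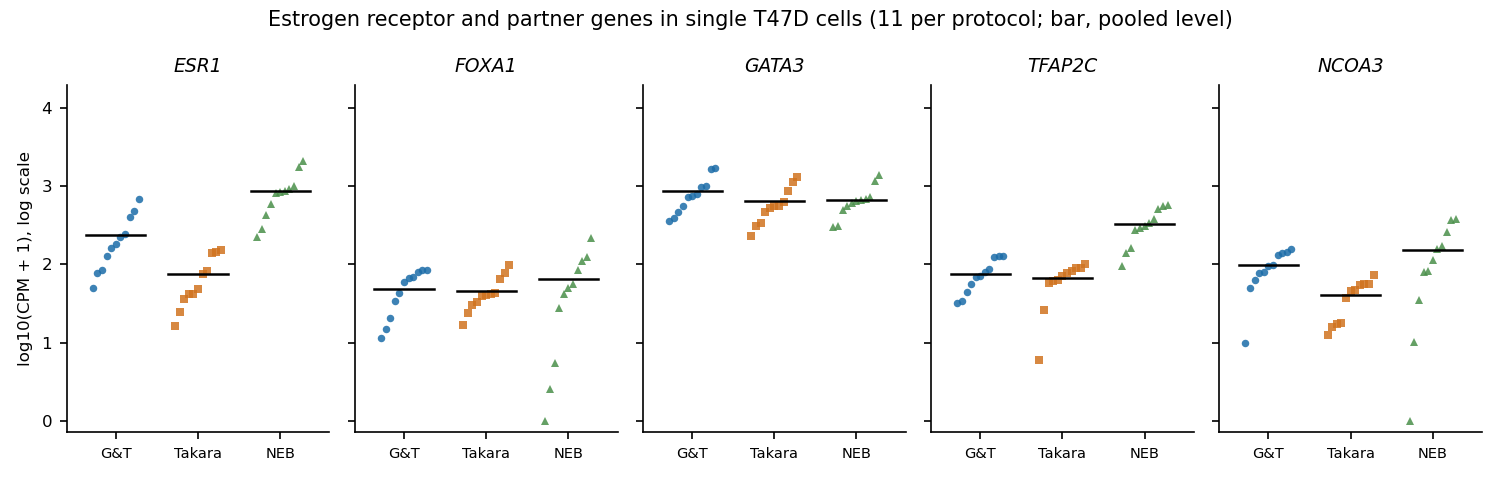
Level of the receptor gene ESR1 and 4 partners in each kept cell, as log10 of CPM plus 1 (log scale), for 11 cells each of G&T (circles), Takara (squares) and NEB (triangles), with black bars for pooled levels. All ESR1 values of NEB, from 225 CPM, lie above all Takara values, which end at 151 CPM.

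A wider list of 35 further targets was read beside the 10. Of these 26 passed the level filter. Past 2-fold were 11 upward and 3 downward in G&T over Takara, 17 and 2 in G&T over NEB, and 11 and 5 in Takara over NEB. The shares of all tested genes were 18.2% and 19.2%, 40.6% and 21.1%, and 40.9% and 23.5%. The medians of the list were 0.63, 1.34 and 0.61, beside -0.07, 0.47 and 0.43 over all tested genes. In G&T over Takara the ends of the list were IGF1R (2.17), UGCG (1.70) and CELSR2 (1.63), and FKBP4 (-1.71), CTSD (-1.40) and TSKU (-1.13). In G&T over NEB they were CTSD (6.07), CELSR2 (30.9 CPM against no NEB read) and SLC7A5 (4.08), and UGCG (-1.35), PGR (-1.32) and IRS1 (-0.76). In Takara over NEB they were CTSD (7.47), FKBP4 (3.5) and SLC7A5 (3.44), and UGCG (-3.05), PGR (-2.69) and IGF1R (-2.52). PGR, the progesterone receptor gene, had the order of ESR1, with 428, 164 and 1068 CPM in G&T, Takara and NEB. CTSD, the gene of the protease cathepsin D, was lowest in NEB like the trefoil genes, with 244, 643 and 2.63 CPM. XBP1 was listed at 0 in all 40 cells, and no level is read from that.

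Within a protocol, the pairs of the 10 genes ranged from negative to positive correlations across cells. In NEB each negative pair had a gene read in under 9 cells, such as IGFBP5 with AREG at -0.67. These are rank correlations over 11 cells that share a plate and a run, given as descriptions. Over the pairs of genes read in at least 9 cells each, rho ran from -0.75 to 0.91 in G&T and from -0.80 to 0.82 in Takara (36 pairs each), and from 0.27 to 0.64 in NEB (6 pairs). The medians were 0.14, 0.09 and 0.47, beside 0.06, 0 and 0 over all pairs of genes read as often. Above the 95th percentile of all such pairs lay 3, 5 and 2. TFF1 and TFF3 varied together in both G&T and Takara: rho was 0.88 in G&T (0.85 to 0.92 with each cell left out) and 0.71 in Takara (0.64 to 0.79). In NEB, where TFF1 was read in 2 cells, it was 0.35. The 2 G&T cells with no TFF1 read, in wells B2 and D1, held 115 and 610 CPM of TFF3, and the Takara cells A2 and D1 with none held 529 and 239 CPM.

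**Figure D4:**
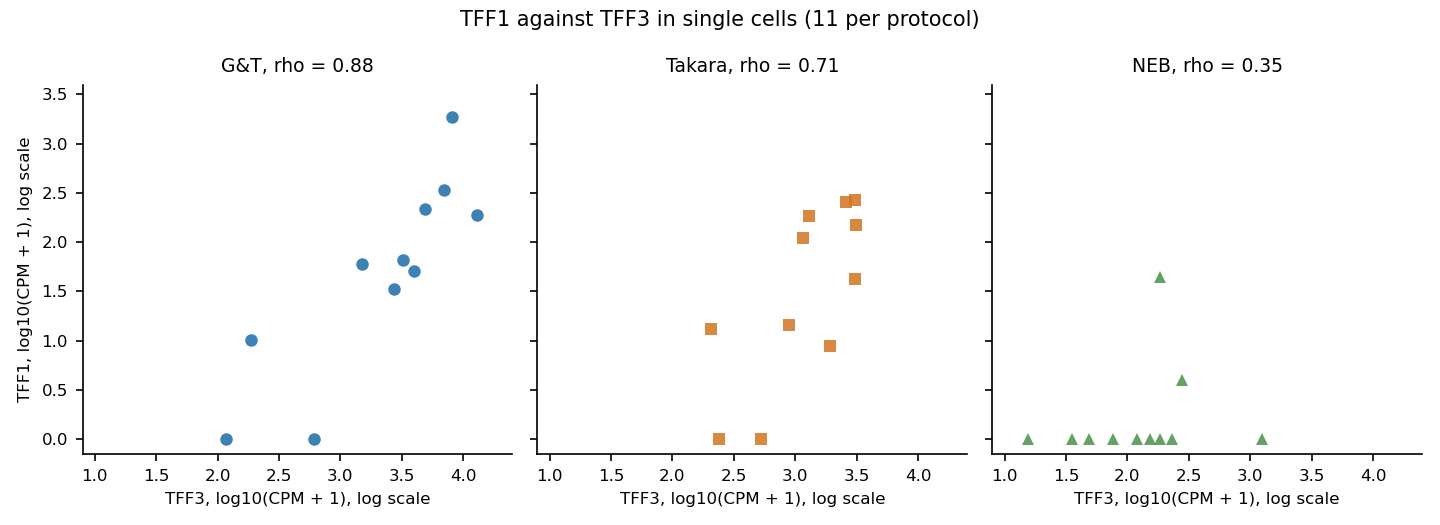
TFF1 against TFF3 in single cells of each protocol, both as log10 of CPM plus 1 (log scale), 1 point per cell and 11 per protocol. Cells with much TFF3 also hold TFF1 in G&T (rho 0.88) and Takara (rho 0.71), while in NEB 9 of the 11 points lie at 0 for TFF1.

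CA12 and STC2 had a rho of 0.85 (G&T), 0.54 (Takara) and 0.45 (NEB). The correlation of their log2 levels was 0.77, 0.48 and 0.09 in the same order, so the NEB value depends on the measure. Other pairs differed in value between protocols, some of them without a change of sign. PDZK1 with TFF1 had a rho of 0.82 in Takara and 0.44 in G&T. GREB1 with NRIP1 had 0.91 in G&T but 0.19 in Takara, and STC2 with AREG -0.80 in Takara but 0.30 in G&T. The 2 NEB pairs past the 95th percentile included CA12 with IGFBP5 at 0.64, a pair at 0.76 in Takara and -0.21 in G&T.

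**Figure D5:**
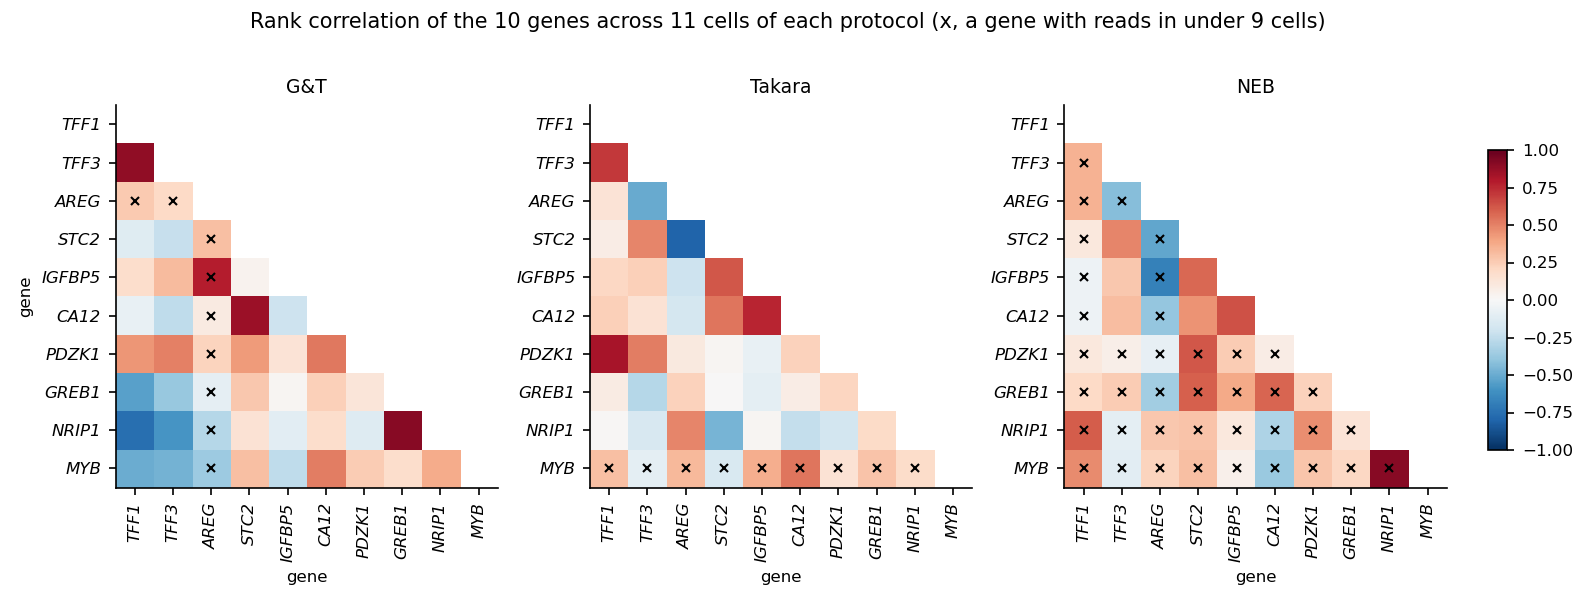
Spearman's rho (colour, from -1 in blue to 1 in red) of each pair of the 10 genes across the 11 kept cells of each protocol; crosses mark pairs with a gene read in under 9 cells. TFF1 with TFF3 and CA12 with STC2 are red in each panel, and STC2 with AREG is among those that change colour between panels.

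Measures of the cells moved with some of these genes, and their part was not tested. In G&T, NRIP1 and GREB1 had a rho of 0.92 and 0.87 with the number of genes detected in a cell, and TFF1 and TFF3 of -0.77 and -0.66. In Takara the same values were -0.41, -0.14, 0.13 and -0.15. ESR1 had 0.89 in G&T. The rho with ESR1 in G&T was 0.93 for NRIP1, 0.84 for GREB1, -0.77 for TFF1 and -0.67 for TFF3, while 5% to 95% of 7931 genes lay between -0.52 and 0.72. In Takara the rho with ESR1 was -0.10, 0.545, -0.02 and -0.40 for these genes. There 5% to 95% of 8479 genes lay between -0.509 and 0.547. In NEB only TFF3 of these genes was read in at least 9 cells, with a rho of 0.05. IGFBP5 had 0.81 with ESR1 in NEB, but -0.36 in G&T and 0.02 in Takara. In NEB 5% to 95% of 2551 genes lay between -0.54 and 0.53. The summed level of 10 mitotic genes had a rho with IGFBP5 of -0.35 (G&T), -0.73 (Takara) and -0.79 (NEB), and with AREG of 0.83 in NEB but -0.08 in G&T and -0.20 in Takara. CA12 had 0.15 (G&T), -0.75 (Takara) and -0.50 (NEB) with it. TFF3 had -0.66 (G&T), -0.11 (Takara) and -0.63 (NEB) with that mitotic level. TFF1 had -0.51 (G&T), -0.44 (Takara) and 0.2 in NEB, where it was read in 2 cells.

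For the 8 genes read in at least 9 cells of both G&T and Takara, the genes most like them across cells were taken by the smaller of both rho values, over 11 cells each and 7542 candidates. For TFF1 they were OLFML3 (0.73), TFF3 (0.71) and S100A4 (0.71), and for TFF3 TMSB4XP4 (0.77), NUTF2 (0.73) and GNG11 (0.71). For GREB1 they were ELMO3 (0.82) and PLOD1 (0.75), and for NRIP1 TRIM11 (0.81) and COMMD8 (0.76). So TFF3 was among the nearest genes of TFF1, and no other of the 10 genes was among the nearest of another. For STC2 they were FKBP5 (0.74), EMC1 (0.68) and RNF41 (0.68), and for CA12 PHLDA1 (0.69), SELENOF (0.69) and SRSF10 (0.67). For PDZK1 they were MRPS7 (0.70), SERPINA6 (0.66) and SPRYD4 (0.64), and for IGFBP5 EHD4 (0.73), RCAN1 (0.64) and RNF213 (0.64). In NEB, which the choice did not use, SERPINA6 had a rho of 0.92 with PDZK1 and RCAN1 of 0.56 with IGFBP5, whereas NUTF2 had -0.01 with TFF3.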

How the data were processed

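Reads of 40 single T47D cells were trimmed by the authors with Trim Galore in a pair of rounds, aligned to GRCh38 with STAR and counted per gene by its gene count option. The deposited tables, 1 per protocol, hold these raw counts per gene and cell, without normalization or filter. The annotation release and the strand column are not given in the sources used here. Besides 60279 genes and 92 ERCC spike-ins they have 4 rows of unassigned reads, which took 17.7% to 40.6% of the reads of a kept cell and stayed out of all levels.

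CPM was computed over reads on genes. Reads were summed over the kept cells of a protocol, 1 CPM was added before log2 ratios, and 2-fold or more was called. Tested genes had a mean pooled level of at least 5 CPM. GENCODE release 44 (GRCh38), perhaps not the authors' release, gave gene coordinates, exons and the canonical transcript of each gene, and RefSeq (GRCh38.p14) gave promoter windows. All 86 symbols of the gene lists matched 1 listed identifier. Detection at equal depth is the number expected after thinning to 624772 reads. The steps were checked on simulated data. The 10 genes and all lists were chosen with earlier results of these data known.

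Genes named are the 10, the receptor and its partners, the 3 highest and 3 lowest further targets by ratio in each pair, and the 3 nearest genes of each of the 10 by rank correlation, apart from a few genes that are not reported here. Alternatives covered cells kept, pooling, pseudocount, scaling by edgeR 4.0.16 TMM, DESeq2 1.42.0 size factors, reads outside the mitochondrial genome or ERCC spike-ins, the fold, the filter, the reads that count as detection, and leaving out each cell. Software was R 4.3.3 and Python 3.11.15, with matplotlib 3.10.9, scipy 1.17.1, pandas 2.3.3 and numpy 2.4.6.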

Additional observations from a re-analysis of the deposited data

Results flagged for a closer look

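The 7 removed cells enter only the alternative over all deposited cells, and 5 of them held more than 3 reads on the 10 genes in sum, the limit that a count of 0 allows. The G&T cell in well F1 had 1715 reads on all 10 genes, with 504 on CA12 and 434 on TFF3, and its level of 2939 CPM lay within the range of the kept G&T cells, 1149 to 14694 CPM. The G&T cell in well C2 had 275 reads on 7 of the genes, 147 of them on IGFBP5, and 33.7% mitochondrial reads. The NEB cell in well F2 had 691 reads on 9 of the genes, and the NEB cell in well B2 had 316 reads on 5 of them, 125 on AREG and 109 on STC2. The Takara cell in well C2 had 6 reads, with 91.3% of its reads on ERCC spike-ins.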

How the results depend on the processing

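The counts of the 10 genes past 2-fold depended mainly on scaling and on single cells. Scaled to ERCC spike-ins, the number higher was 0 in G&T over Takara and 10 in both comparisons with NEB, and the number lower was 5 in G&T over Takara and 0 in both comparisons with NEB. Under that scaling 51.6% of all tested genes were lower in G&T over Takara, and 88.6% and 94.3% were higher than in NEB. It reversed MYB in G&T over NEB (1.35) and MYB (2.5), NRIP1 (1.65) and IGFBP5 (2.62) in Takara over NEB, and no other setting turned a log2 ratio that was past 2-fold. With reads outside the mitochondrial genome 1 gene was lower in G&T over Takara (16.9% of all tested genes). With TMM scaling or DESeq2 size factors 4 were higher there (16.9% and 16.1%), without GREB1. In G&T over NEB 2 were lower with DESeq2 size factors (25.3%) and 3 at 1.5-fold (28.9%), and at that fold 5 were higher in Takara over NEB (47.4%). Genes read in every cell fell to 1 in Takara and to 1 in NEB over all deposited cells, and to 1 in NEB with at least 5 reads required. With each cell left out in turn, the number lower ran from 1 to 2 in G&T over Takara, from 0 to 2 in G&T over NEB and from 1 to 3 in Takara over NEB, and the number higher from 4 to 5, 4 to 5 and 3 to 4. For the number lower, the NEB cell in well E2 gave the lowest value in both comparisons with NEB. The number lower in G&T over Takara was 1 without G&T well E2 or H1 or Takara well A1, D1, E2 or H1. Genes read in every NEB cell ran from 2 to 4, the latter without C1. DESeq2 size factors shifted the median of all tested genes by -0.103, -0.225 and -0.117 in G&T over Takara, G&T over NEB and Takara over NEB. A pseudocount of 0.1 CPM left all 30 log2 ratios within their counting error. No paired analysis was possible because wells do not link cells across protocols and no result comes from a test. With 11 cells and 1 run per protocol, a difference between protocols cannot be told from one between runs.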
